A study of Drosophila melanogaster with 32 samples.

Results

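Neuronal RNA-binding proteins are described here through 7 genes of Drosophila melanogaster, elav, fne, Rbp9, bru-3, pum, Fmr1 and Adar, chosen by name among the 14161 genes of the count table. All 7 were in the table, and all 7 passed the filter on low counts that left 10224 genes for testing. The brains came from larvae of instar 3, 500 per preparation, and every animal carried ipcGal4 and UASRpl10Ab::GFP, so that a ribosomal protein fused to GFP was made where that driver is active. Preparations were wild type for ato or carried the ato1 allele, labelled as a loss of function of the proneural gene atonal. A share of 10% of each homogenate was kept as input, RNA of the brain as a whole. Antibodies to GFP were applied to the remainder, and the RNA they brought down with the tagged ribosomes is called IP; the labels assign it to T4 and T5 cells, which detect motion in the optic lobe. Each genotype had 2 input and 2 IP libraries.

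RNA-binding proteins set how a neuron splices, edits, localises and translates its transcripts. The ELAV family, to which elav, fne and Rbp9 belong, binds U-rich RNA through RNA recognition motifs; in Drosophila neurons ELAV and FNE direct alternative splicing and the use of distal polyadenylation sites, and ELAV protein is the standard marker of a differentiated neuron. bru-3 encodes a CELF-type regulator of splicing and translation. Pumilio and FMRP, the products of pum and Fmr1, repress the translation of bound transcripts in neurons, and Adar encodes the enzyme that converts adenosine to inosine in neuronal transcripts, channel and synaptic mRNAs among them.

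Libraries held 7780123 to 12238648 counts. The 7 T4/T5 factors used as a check (bi, dac, grn, acj6, SoxN, Sox102F and AP-2) were detected in all 8 libraries, and their summed level was 558.9 to 579.9 CPM (counts scaled to library size with TMM factors) in wild-type input and 825.5 to 856.7 CPM in wild-type IP. In ato it was 390.0 to 433.7 CPM in input and 515.9 to 651.7 CPM in IP. The sum does not hold for each factor. At an adjusted p below 0.05 in edgeR, an IP increase was called for 3 of these 7 factors in wild type and 4 in ato. A decrease was called for 0. AP-2, named here after its values were seen, had a negative log2 value of IP over input (-0.35 ± 0.18 SE in both genotypes, not called). Markers of other cells were present as well. Summed over 8 genes, muscle markers lay at 98.04 to 102.9 CPM in wild-type input and 252.9 to 453.5 in ato input. In the IPs they lay at 539.3 to 695.1 CPM in wild type and 816.6 to 1689 in ato. None of these 8 muscle genes was at 0 in any library. Summed over 8 genes, glial markers lay at 775.8 to 862.4 CPM in the wild-type inputs and 823.4 to 848.5 in the wild-type IPs, against 1338 to 1516 and 1305 to 1473 in ato.

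The gene models that were counted differ in how much of each gene they hold. In dm3, the build of the deposited table, elav lies on chromosome X at 410881 to 417259 on the minus strand, with 4 exons of 3099 bases in all. On the same chromosome fne lies at 12832568 to 12839830 on the plus strand (6 exons, 3031 bases), and Adar at 1667783 to 1678034 on the plus strand (11 exons, 3426 bases). Rbp9 lies on chromosome arm 2L at 2954762 to 2968434, plus strand, with 12 exons of 8042 bases. bru-3 occupies 13530975 to 13659849 on 3L, minus strand, and only 2.44% of that span is exon (14 exons, 3148 bases). pum occupies 4895479 to 5063417 on 3R, minus strand (17 exons, 7411 bases), with 4.41% exon, and Fmr1 lies on the same arm and strand at 5927142 to 5935844 (14 exons, 4789 bases). Exons of Rbp9 overlapped those of another gene, Ts on the opposite strand, over 1.77% of their length, and the other 6 had no overlap. Strand was not used in counting, so reads in that overlap cannot be assigned to either gene.

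In the newer fly annotation (Ensembl, on another build, used for lengths only) the exons of elav sum to 10715 bases, 3.46 times the counted model, with 3' untranslated regions of up to 8557 bases. The ratio was 4.07 for bru-3, 3.15 for fne, 2.62 for Adar and 1.59 for pum, but 1.00 for Rbp9 and 1.02 for Fmr1. Reads from exonic sequence outside the counted models do not enter the values below, and levels per kilobase are per kilobase of counted exon.

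**Figure D1:**
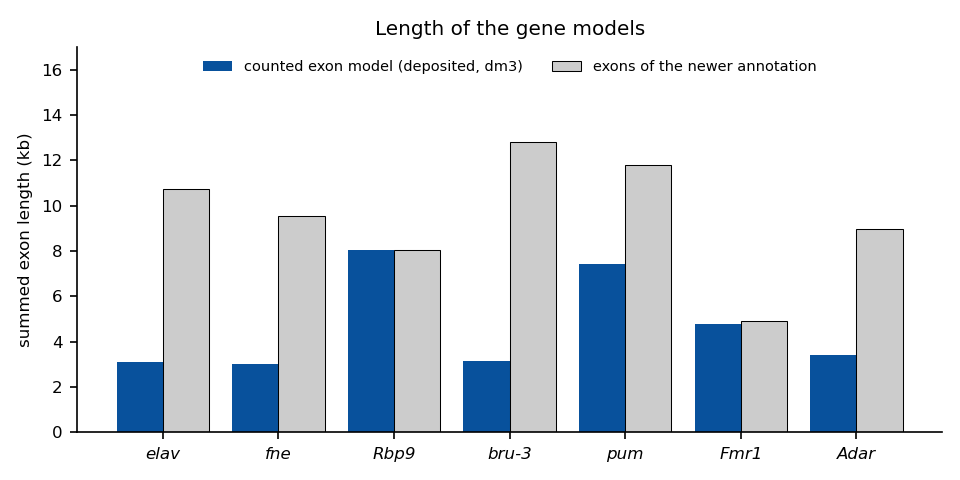
Summed exon length in kb of each gene in the deposited dm3 table (blue) and in the newer annotation (grey). For elav, fne, bru-3 and Adar the newer models are 2.62 to 4.07 times as long, whereas Rbp9 and Fmr1 have nearly the same length in both.

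Levels ranged widely among the 7 genes. Per kilobase of counted exon, fne was highest in all 4 groups, at 184.9 ± 24.0 CPM per kb (SD, n = 2) in wild-type input and 320.8 ± 73.7 in wild-type IP. Next came elav (144.1 ± 9.48 and 167.3 ± 22.0) and Fmr1 (138.6 ± 9.0 and 95.4 ± 24.7). In wild-type input the libraries of elav and Fmr1 overlapped on this scale, so their order there is not settled; in the other groups they were separate. Adar (30.2 ± 2.43), bru-3 (20.2 ± 1.91) and pum (15.9 ± 1.16) followed in wild-type input. In wild-type IP bru-3, pum and Adar overlapped, at 52.8 ± 17.5, 48.3 ± 12.3 and 41.7 ± 3.61 CPM per kb. Rbp9 was lowest in every group, between 2.65 ± 0.519 CPM per kb in ato input and 4.49 ± 0.240 in wild-type IP. Between input and IP in wild type, fne moved from the 95.1st to the 98.0th percentile of tested genes on this scale and pum from the 53.9th to the 84.4th, while Rbp9 stayed near the 27th (27.7 and 27.0).

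**Figure D2:**
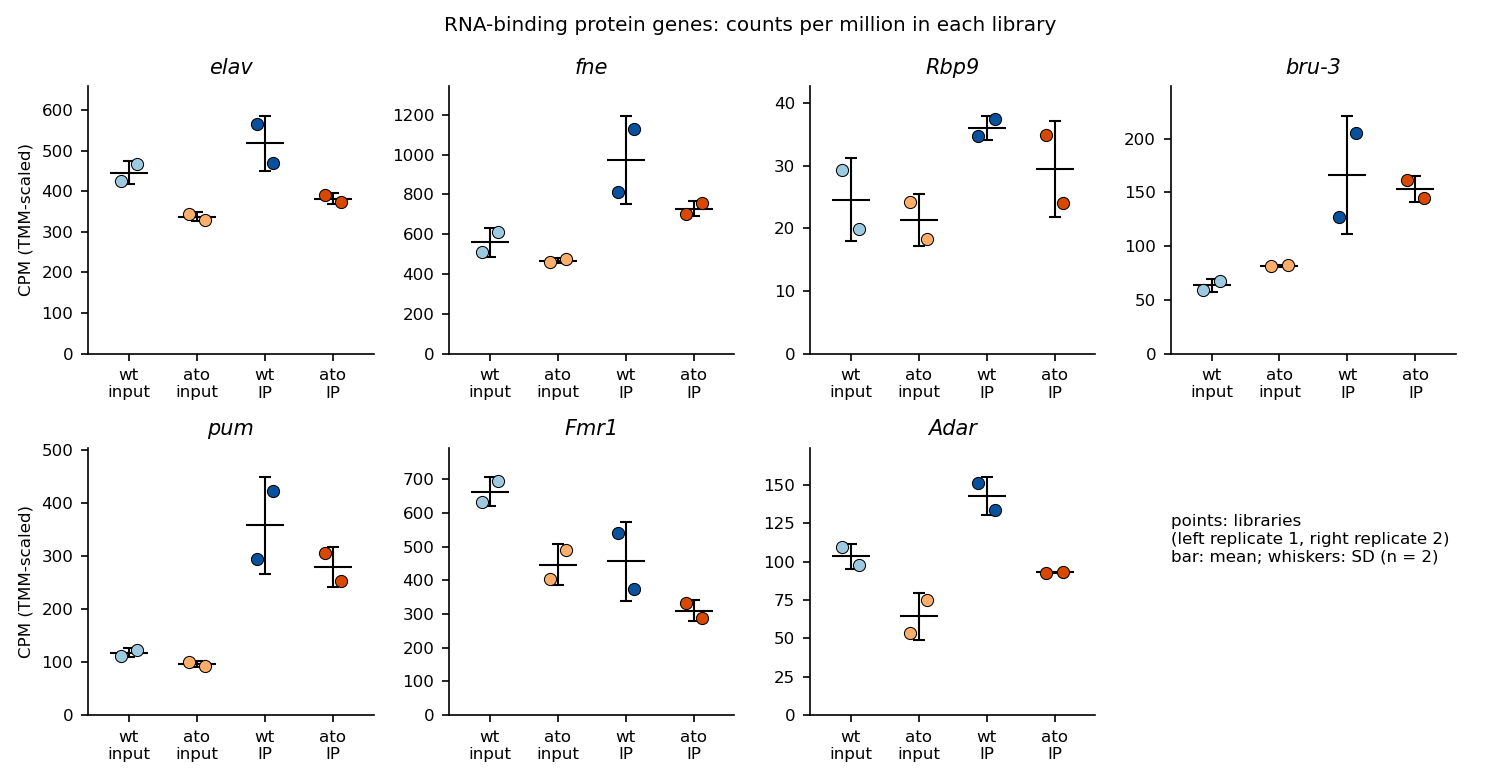
CPM (y axis, linear from 0) of the 7 genes in each of the 8 libraries, with the mean and SD of the 2 libraries of a group. For pum, bru-3 and fne all IP libraries lie above all input libraries, for Fmr1 each IP group lies below the input of its genotype, and for elav and Adar each ato group lies below the wild-type group of the same kind.

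Setting IP beside input compares the RNA brought down by the antibodies with RNA of the entire brain. No IP from brains without the tag was included, so RNA brought down without tagged ribosomes was not measured. In wild type, pum, bru-3 and fne were higher in the IP, and Fmr1 was lower by a call near the threshold (edgeR adjusted p = 0.0331). Of the 7 genes, 3 were called higher and 1 lower by the edgeR quasi-likelihood test at an adjusted p below 0.05, and the median log2 change was 0.55 against 0.06 over all tested genes. Across the 10224 tested genes 17.3% were called higher and 18.4% lower, 35.7% in all. In ato, pum, bru-3, fne and Adar were called higher and Fmr1 lower, where 11.9% of all tested genes were called higher and 16.3% lower (28.2% in all); the median of the 7 was 0.53 against 0.02 over all. Without overlap between IP and input libraries, 6 of the 7 were higher and 1 lower in wild type, beside 36.1% and 33.6% of all tested genes. In ato 5 were higher and 1 lower without overlap, beside 31.6% and 32.6%. Markers of neurons in general were higher in the IPs as a sum. Their summed level was 283.8 to 287.4 CPM in wild-type input and 584.4 to 627.4 in wild-type IP. In ato it was 340.3 to 411.4 CPM in input and 581.7 to 655.0 in IP. Of the 6 markers 5 were called higher in the wild-type IP and 4 in the ato IP, with 0 lower. Their part in the values of the 7 genes and of the target transcripts was not tested. In bulk RNA, a smaller number of expressing cells and less RNA per cell cannot be told apart, here or in the comparisons of genotypes.

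pum had the largest change of the 7. Its level was 111.5 and 123.6 CPM in the wild-type inputs and 293.8 and 422.4 CPM in the wild-type IPs, and 100.8 and 92.8 CPM in the ato inputs against 306.5 and 253.5 CPM in the ato IPs. All 4 IP libraries were above all 4 inputs. This is 3.05-fold in wild type (log2 1.61 ± 0.19 SE with 2 libraries in each group, edgeR adjusted p = 1.67e-05) and 2.89-fold in ato (1.53 ± 0.19, adjusted p = 3.93e-05). The lower limit of the 95% interval was 1.20 in wild type and 1.13 in ato on the log2 scale. When the trend of each library with exon length was removed, the values were 1.08 and 0.97 and stayed called (adjusted p = 0.00047 and 0.00185).

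bru-3, the CELF-family gene, was at 59.2 and 67.7 CPM in the wild-type inputs and 127.3 and 205.1 CPM in the IPs. The ato values were 81.2 and 82.3 CPM in the inputs and 161.7 and 144.2 CPM in the IPs. Again no IP library reached down to an input. The fold was 2.62 in wild type (log2 1.39 ± 0.21, edgeR adjusted p = 0.000116) and 1.87 in ato (0.90 ± 0.21, adjusted p = 0.00381). Both calls held in all 19 alternatives that were run. The other CELF genes were treated the same way: of the family's 3 genes, 2 were called higher in each genotype, the second being aret (1.10 ± 0.24 in wild type, adjusted p = 0.00184, and 0.80 ± 0.24 in ato, adjusted p = 0.0184). The ato call of aret was lost without ato input 1 (adjusted p = 0.121) or ato IP 1 (0.133), with 1 run per library (0.116) and with the length trend removed (0.51, 0.0855).

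Within the ELAV family, fne was called and elav was not. fne had 508.9 and 612.0 CPM in the wild-type inputs and 814.3 and 1130 CPM in the wild-type IPs, and 458.5 and 475.3 against 700.5 and 756.7 CPM in ato. Its IP level in wild type was 1.73 times that of input (log2 0.80 ± 0.18, edgeR adjusted p = 0.0026), and the ratio in ato was 1.56 (0.64 ± 0.18, adjusted p = 0.0126). Leaving out wild-type input 1 ended the wild-type call (adjusted p = 0.0648), and leaving out ato IP 2 ended the ato call (0.0627). elav, by contrast, was at 425.7 and 467.3 CPM in the wild-type inputs and 566.7 and 470.4 CPM in the IPs, where wild-type IP 2 lay only just above the higher input. In ato it was at 345.4 and 329.6 CPM in the inputs and 391.9 and 372.7 CPM in the IPs. Its log2 value was 0.22 ± 0.16 in wild type (95% interval -0.12 to 0.55, edgeR adjusted p = 0.303) and 0.18 ± 0.16 in ato (-0.16 to 0.52, adjusted p = 0.427). The interval leaves out a doubling in the IP for the gene whose product marks differentiated neurons. The difference between fne and elav was not tested.

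The ratio of fne to elav within a library does not depend on how libraries are scaled. Per kilobase it was 1.22 and 1.34 in the wild-type inputs and 1.47 and 2.46 in the wild-type IPs, then 1.36 and 1.47 in the ato inputs and 1.83 and 2.08 in the ato IPs. In each genotype both IPs were above both inputs, with the widest spread between the 2 wild-type IPs. Of the summed per-kilobase level of the 3 ELAV-family genes, fne took 55.6% ± 1.76 in wild-type input and 64.7% ± 8.14 in wild-type IP, and 58.0% ± 1.52 and 65.4% ± 2.18 in ato. Rbp9 took 0.913% to 1.00% in the 4 groups.

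Rbp9, the third member of the ELAV family, was low everywhere, with 182 to 358 counts per library. It lay at 29.3 and 19.9 CPM in the wild-type inputs and 34.7 and 37.4 CPM in the IPs, and at 24.3 and 18.4 CPM in the ato inputs and 34.97 and 24.1 CPM in the IPs. The ato groups overlapped and the wild-type groups did not. The log2 values were 0.55 ± 0.27 in wild type (edgeR adjusted p = 0.119) and 0.47 ± 0.27 in ato (adjusted p = 0.21). With the length trend removed they turned to -0.07 and -0.17, whereas the wild-type value was called higher with 1 run per library (1.01, adjusted p = 0.0197) and with upper-quartile factors (0.74, 0.0432). No direction is given for this gene, whose counted exons are the longest of the 7.

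Among more distant relatives, Sxl, the sex-determination gene whose protein resembles the ELAV family, had an IP level in wild type 2.23 times that of input (log2 1.16 ± 0.20, edgeR adjusted p = 0.000423), and 2.17 times in ato (1.12 ± 0.21, adjusted p = 0.000772). With the length trend removed the values were 0.56 (adjusted p = 0.0471) and 0.52 (0.0852), which ended the ato call. Its relative ssx, listed as CG3056, was lower in the ato IP (-0.57 ± 0.18, adjusted p = 0.0234), a call lost when any 1 of the 4 ato libraries was left out (adjusted p up to 0.138), with DESeq2 size factors (0.0588), upper-quartile factors (0.0906) or 1 run per library (0.23).

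Fmr1 went the other way. It was at 633.2 and 694.1 CPM in the wild-type inputs and 540.6 and 373.3 CPM in the IPs, and at 402.9 and 489.2 CPM in the ato inputs and 331.9 and 289.1 CPM in the ato IPs. In both genotypes the IPs were below the inputs with no overlap, while the ato inputs lay within the range of the wild-type IPs. The log2 value was -0.54 ± 0.19 in wild type (edgeR adjusted p = 0.0331) and -0.52 ± 0.19 in ato (adjusted p = 0.0457). These calls were near the threshold: with DESeq2 size factors the adjusted p was 0.0656 in wild type and 0.108 in ato, and without wild-type IP 2 the wild-type value was -0.29 (0.274). With the length trend removed the values were -0.81 and -0.79 (0.00025 and 0.000486). Leaving out wild-type input 1 (0.084) or 2 (0.169) also ended the wild-type call, as did upper-quartile factors (0.143) and a fit of only the groups compared (0.0576). The ato call ended in 10 of 19 alternatives, among them leaving out any 1 of the inputs or either ato IP (0.0603 to 0.259), upper-quartile factors (0.157), the DESeq2 Wald test (0.0795) and 1 run per library (0.159). Per kilobase, the ratio of pum to Fmr1 within a library was 0.114 and 0.115 in the wild-type inputs and 0.351 and 0.731 in the IPs, and 0.162 and 0.123 against 0.597 and 0.567 in ato.

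Adar was at 109.4 and 97.6 CPM in the wild-type inputs and 151.5 and 134.0 CPM in the IPs, and at 53.5 and 75.3 CPM in the ato inputs and 93.0 and 93.2 CPM in the ato IPs. In each genotype the IPs were above the inputs with no overlap. The log2 value was 0.46 ± 0.19 in wild type (edgeR adjusted p = 0.0641) and 0.53 ± 0.19 in ato (adjusted p = 0.0481), on either side of the threshold and with no call of a difference between genotypes (interaction 0.07 ± 0.27, adjusted p = 1). The wild-type value passed under 8 of 19 alternatives, DESeq2's Wald test (0.0192) and limma-voom (0.0458) among them. The ato call ended in 8 of 19 alternatives: with no filter on low counts (0.0534), with only the groups compared in the fit (0.0661), with the length trend removed (0.0687), and on leaving out wild-type input 1 (0.0893), wild-type input 2 (0.0886), ato input 1 (0.303), ato IP 1 (0.135) or ato IP 2 (0.124).

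The wild-type IPs differed from each other in the size of these changes. For fne, bru-3 and pum the second wild-type IP was the higher one, and for Fmr1 it was the lower one. Without the second wild-type IP the log2 values were 1.01 for bru-3, 1.33 for pum and -0.29 for Fmr1. Without the first they were 1.68, 1.83 and -0.84.

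**Figure D3:**
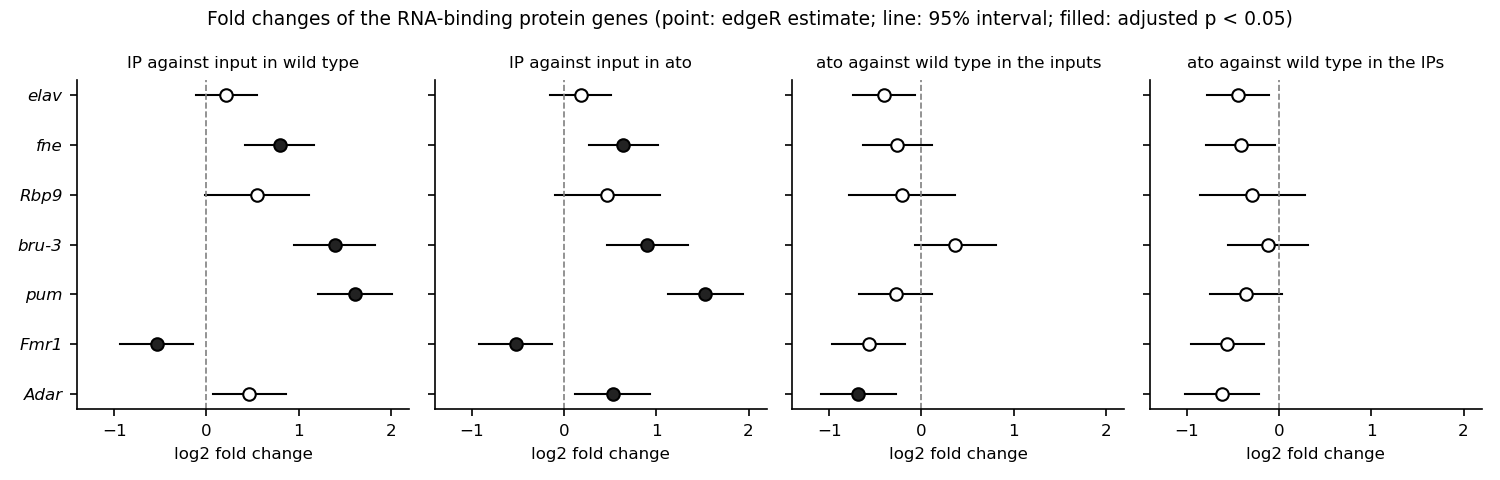
Log2 fold change (x axis) of each gene in 4 comparisons, with its 95% interval; filled points passed an adjusted p of 0.05 in edgeR. The 2 panels of IP against input show pum, bru-3 and fne to the right of 0 and Fmr1 to the left, and in both genotype panels the estimates lie to the left of 0 except that of bru-3 in the inputs.

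**Figure D4:**
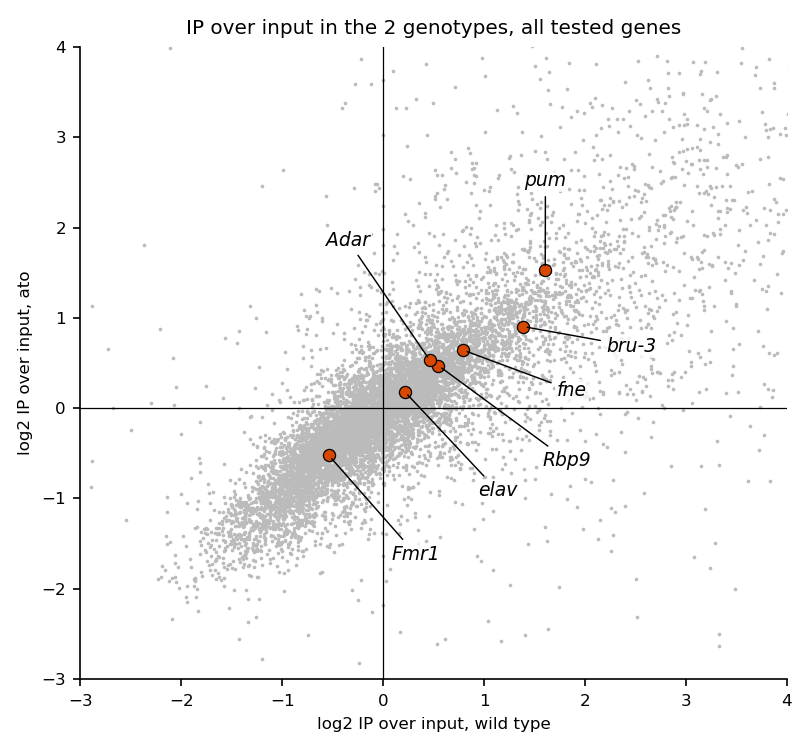
Log2 IP over input in wild type (x axis) and in ato (y axis) for the tested genes (grey, 649 of 10224 lie outside the axes) and for the 7 RNA-binding protein genes (orange). pum lies at 1.61 and 1.53, bru-3 at 1.39 and 0.90, and Fmr1 at -0.54 and -0.52.

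The fixed lists of other RNA-binding protein genes give a setting for these values. Of 56 tested genes outside the 7, 14 were higher and 16 lower in the wild-type IP, with a median log2 of 0.03, and 11 were higher and 17 lower in the ato IP. The list of other neuronal RNA-binding proteins was split: mbl, the splicing regulator muscleblind, had an IP level in wild type 5.04 times that of input (log2 2.33 ± 0.19, edgeR adjusted p = 9.44e-07), and snf, a protein of the spliceosomal U1 and U2 particles, was 2.62-fold lower (-1.39 ± 0.18, adjusted p = 3.16e-05). In ato these values were 1.80 ± 0.18 and -1.28 ± 0.18. With the length trend removed mbl was at 1.29 in wild type and 0.80 in ato, both still called (adjusted p = 0.000192 and 0.00996). That list had 7 higher and 6 lower of 25. Muscle markers were higher in the IP in 8 of 8 genes, and the part of muscle RNA in the mbl value was not tested. Of 13 general splicing and mRNA-binding factors 2 were higher and 7 lower in wild type. Among them the exon junction gene tsu was lower (-1.19 ± 0.18, adjusted p = 0.00012) and larp, which encodes a La-related protein, was higher (1.19 ± 0.19, adjusted p = 0.000161, and 0.54 with the length trend removed, 0.0196). In ato 2 were higher and 8 lower, led by tsu (-1.32 ± 0.18, adjusted p = 7.52e-05) and its exon junction partner mago (-1.30 ± 0.20, adjusted p = 0.000203).

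The genes around FMRP and Pumilio were divided too. Of 8 tested genes that encode FMRP partners or small RNA factors, 2 were higher and 2 lower in wild type. The double-stranded RNA-binding protein gene stau rose 3.34-fold (log2 1.74 ± 0.17, edgeR adjusted p = 3.58e-06), and me31B, the RNA helicase of repressed mRNA particles, fell 1.91-fold (-0.93 ± 0.16, adjusted p = 0.000304). Both were called in ato as well, at 1.29 ± 0.17 and -0.92 ± 0.16. Of 6 tested genes for Pumilio partners and deadenylation, mei-P26 was called higher in wild type (0.49 ± 0.18, adjusted p = 0.0398). The deadenylase gene Pop2 was called lower in wild type (-0.48 ± 0.16, adjusted p = 0.026). The call of mei-P26 was lost in 8 of 19 alternatives: without either wild-type input, wild-type IP 1, ato input 1 or either ato IP (adjusted p up to 0.293), with 1 run per library (0.0527) and with the length trend removed (0.17, 0.378). The wild-type call of Pop2 was also lost in 8 of 19, among them without any 1 of the 4 wild-type libraries (log2 -0.49 to -0.47). The others were DESeq2 size factors (0.0611), upper-quartile factors (0.168), 1 run per library (0.157) and the abundance trend removed (0.0707). In ato mei-P26 was not called (0.34 ± 0.18, edgeR adjusted p = 0.161). Pop2 was called lower there (-0.48 ± 0.16, 0.0317), a call lost with DESeq2 size factors (0.0898) and upper-quartile factors (0.153), among others.

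Of 15 transcripts on which members of the 7 are known to act, 9 were called higher and 1 lower in each genotype's IP. Over all tested genes 17.3% were called higher and 18.4% lower in wild type, and 11.9% and 16.3% in ato. Syt1 and futsch are also among the 6 markers of neurons in general, so these lists overlap. The median log2 of the 15 transcripts was 1.18 in wild type and 0.79 in ato. The highest were the calcium channel gene cac (2.85 ± 0.20, edgeR adjusted p = 2.79e-07) and the sodium channel gene para (2.71 ± 0.31, adjusted p = 1.27e-05), both edited by ADAR and both again called in ato (2.12 ± 0.20 and 2.09 ± 0.30). The gene that fell was arm, named here after its values were seen, whose splicing ELAV regulates (-0.85 ± 0.18 in wild type, adjusted p = 0.00151).

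The genotypes were compared in inputs and in IPs, to see what differed in brains that lack ato function. In the inputs 1 of the 7 genes was called, Adar, which was lower in ato, beside 2.34% of all tested genes called lower and 4.64% called higher, 6.97% in all. Adar fell from 103.5 ± 8.33 CPM (SD, n = 2) to 64.4 ± 15.5 CPM, a 1.61-fold decrease (log2 -0.68 ± 0.19, edgeR adjusted p = 0.0381). Leaving out wild-type input 1 (0.277), wild-type input 2 (0.14) or ato input 1 (0.278), the library in which Adar was lowest, ended the call. It was also lost with upper-quartile factors (0.058) and with the abundance trend removed (0.0699).

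Fmr1 was close to the threshold in the same direction, at 663.6 ± 43.1 CPM in wild-type input and 446.0 ± 61.0 in ato input (log2 -0.57 ± 0.19, edgeR adjusted p = 0.0774). It passed under 6 of 18 alternatives, the DESeq2 Wald test (0.0328) among them, and its adjusted p reached 0.414 over the left-out libraries. elav was at 446.5 ± 29.4 and 337.5 ± 11.1 CPM (-0.40 ± 0.16, adjusted p = 0.152), fne at 560.5 ± 72.9 and 466.9 ± 11.9 CPM (-0.26 ± 0.18, 0.416), and pum at 117.5 ± 8.61 and 96.8 ± 5.64 CPM (-0.28 ± 0.19, 0.416). The value of Rbp9 was -0.21 ± 0.27 (0.698) and turned to 0.10 without wild-type input 1. bru-3 had the opposite sign, at 63.5 ± 6.03 CPM in wild type and 81.7 ± 0.812 in ato (0.37 ± 0.21, 0.324). In the inputs 5 of the 7 genes were lower in both ato libraries than in both wild-type libraries and 1, bru-3, was higher, where 26.4% of all tested genes were lower and 27.6% higher without overlap.

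In the IPs none of the 7 genes was called by edgeR. The count was 0 with the DESeq2 Wald test and limma-voom as well, and 4 of the 7 had an unadjusted p below 0.05, as had 17.4% of all tested genes. Adar had 142.8 ± 12.4 CPM in wild type against 93.1 ± 0.101 CPM in ato (log2 -0.62 ± 0.19, edgeR adjusted p = 0.0747), and Fmr1 had 457.0 ± 118 and 310.5 ± 30.2 CPM (-0.56 ± 0.19, adjusted p = 0.106). elav was at 518.5 ± 68.1 and 382.3 ± 13.6 CPM (-0.44 ± 0.16, 0.137) and fne at 972.3 ± 223 and 728.6 ± 39.8 CPM (-0.42 ± 0.18, 0.224). The values of pum (-0.35 ± 0.19), Rbp9 (-0.29 ± 0.27) and bru-3 (-0.12 ± 0.20) were smaller, and bru-3 turned to 0.25 without wild-type IP 2. No overlap was seen for 4 of the 7, elav, fne, Fmr1 and Adar, which were lower in ato; over all tested genes 23.8% were lower in ato without overlap and 21.7% higher. Across all tested genes 1.88% were called lower and 2.82% higher in these IPs, 4.69% in all. Without the filter on low counts, which adds genes to the fit, Fmr1 (0.0271) and Adar (0.0313) passed. Leaving out 1 library moved these values both ways, and the wild-type IPs had opposite effects. Fmr1 passed without wild-type IP 2 (-0.81, 0.0114) and was at -0.27 (0.534) without wild-type IP 1. fne passed without wild-type IP 1 (-0.64, 0.04) and was at -0.17 (0.714) without wild-type IP 2. pum was at -0.60 (0.0914) and -0.08 (0.899) without the same libraries. Adar passed without ato input 2 (0.0397) and ranged from -0.72 to -0.53 over the left-out libraries, with adjusted p up to 0.335.

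Markers of other cells moved with genotype beside these values. Markers of photoreceptors and the eye disc summed to 220.0 to 233.0 CPM in wild-type input and 63.0 to 65.6 CPM in ato input, and to 175.9 to 217.1 and 68.1 to 84.1 CPM in the IPs. Of the 6 tested, 3 were called lower in the ato inputs and 2 in the ato IPs, and boss and ninaE were at 0 in at least 1 library. Of the 6 markers of neurons in general 0 were lower and 1 was higher in the ato inputs, and 0 were called in the IPs, where the summed levels of the genotypes overlapped. T4/T5 factors were lower in ato as a sum, with 3 of 7 called lower in the inputs and 2 in the IPs, and 0 higher. Among them acj6 was at 0.09 ± 0.41 in the inputs (edgeR adjusted p = 0.939). Of 8 muscle markers 7 were called higher in the ato inputs and 6 in the IPs, with 0 lower. The muscle gene sls was not called, at -0.69 ± 0.30 in the inputs (edgeR adjusted p = 0.2) and 0.02 ± 0.28 in the IPs. Glial markers were mixed: 3 of 8 were called higher and 1 lower in the inputs, and 3 higher and 0 lower in the IPs. The higher glial sum came largely from Gs2, at 123.0 CPM in wild-type and 499.0 in ato input, and nrv2, at 270.8 and 460.8 CPM. loco was the glial gene called lower (-0.71 ± 0.21 in the inputs, adjusted p = 0.0491), and Gli was at -0.79 ± 0.28 (0.113). These 5 genes of muscle and glia, and acj6 above, were named after their values were seen. The part of these cells in the values of the 7 genes was not tested.

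Over all tested genes 4.64% were called higher and 2.34% lower in the ato inputs. Among the 56 other RNA-binding protein genes 2 were higher and 0 lower there. These were ps (pasilla, a NOVA-type splicing regulator), 2.14-fold (log2 1.10 ± 0.17, edgeR adjusted p = 0.000608), and Imp, which encodes an mRNA-binding protein of young neuroblasts, 1.99-fold (0.99 ± 0.17, adjusted p = 0.0012). In the IPs 2 were higher and 1 lower, where 2.82% of all tested genes were called higher and 1.88% lower. Both ps (0.86 ± 0.17, edgeR adjusted p = 0.00603) and Imp (0.74 ± 0.17, 0.0132) were again higher. Hrb87F, an hnRNP gene, was lower (-0.97 ± 0.20, edgeR adjusted p = 0.00874), a call lost without ato IP 2 (log2 -0.78). Of the 15 transcripts on which members of the 7 are known to act, cpx (complexin) alone was called in the inputs (0.79 ± 0.22, edgeR adjusted p = 0.0338). Its log2 value was 0.66 without wild-type input 1, 0.93 without wild-type input 2 and 0.40 without ato input 2, and the call was lost in each.

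The difference of IP over input between genotypes was tested with an interaction term. edgeR called 0 of the 10224 genes (0%), with 436 at an unadjusted p below 0.05, while the DESeq2 Wald test called 1 and limma-voom 0. The largest value among the 7 was that of bru-3, whose enrichment was smaller in ato by -0.48 ± 0.29 on the log2 scale (95% interval -1.10 to 0.13, edgeR adjusted p = 0.991). It was -0.10 without wild-type IP 2 and -0.79 without wild-type IP 1. The other 6 lay between -0.15 ± 0.25 for fne and 0.07 ± 0.27 for Adar, and their intervals reached from -0.88 to 0.73. With 2 libraries per group, differences of that size between genotypes could not be told from 0.

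The profiles of the 7 genes were compared over the 8 libraries, on the same counts as the fold changes above. As a description, the Euclidean distance between log2 CPM profiles, centred on each gene's mean, was largest between pum and Fmr1 (3.09) and smallest between elav and Adar (0.72). The median distance to all genes compared was 2.602 for pum, 1.375 for Fmr1, 1.201 for elav and 1.589 for Adar. Among 7238 genes with at least 10 CPM on average, the nearest to elav were tkv (0.198), Mcr (0.209) and CG10543 (0.23), and the nearest to fne were CG32702 (0.222), l(2)41Ab (0.29) and CG2177 (0.296). For Rbp9 these were mew, Fas3 and CG8451 (0.359 to 0.369), for bru-3 CG42340, CG42342 and Bsg (0.24 to 0.362), for Fmr1 CG8516, Atg4 and CG9941 (0.223 to 0.289), and for Adar nub, CG10803 and Aps (0.307 to 0.343). The nearest to pum were the noncoding RNAs roX2 (0.329) and roX1 (0.372), followed by CR31044 (0.384). The part of RNA not on ribosomes in the IP value of pum was not tested. None of the nearest genes was another member of the 7.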

How the data were processed

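The authors deposited a table of raw counts, 1 column for each sequencing run. TopHat2 2.0.12 and featureCounts 1.4.4 are the tools named in the submitters' notes on processing. Exons of dm3 were the counted features and mapping quality had to reach 5, without a strand option, per the file headers. The exon length column, deposited in bases, gave levels per kb. The 32 runs were summed to 8 libraries (4 runs each) and not treated as replicates. The labels give replicate numbers only, so p-values measure the spread between these libraries, which may be technical.

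Counts were tested with edgeR 4.0.16 in R 4.3.3 (filterByExpr, TMM factors, quasi-likelihood F tests, 1 model over 4 groups). Benjamini-Hochberg adjustment covered all 10224 genes, calls needed an adjusted p below 0.05, and the code was tested on simulated data. The SE is the log2 value over the square root of F. Alternatives used DESeq2 1.42.0 and limma 3.58.1. Exact permutation of 2 and 2 libraries gives no two-sided p under 0.33, so none was used. A count of 3 corresponds to 0.245 to 0.386 CPM.

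The 7 genes and the lists were chosen with earlier results of these data known. Named from each list were the 2 genes of largest change among those called with at least 10 CPM in the higher group, and the 3 genes of nearest profile per member.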

Additional observations from a re-analysis of the deposited data

How the results depend on the processing

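Over all alternatives for the 7 genes, 566 of 644 values kept their direction and their side of the threshold, 31 lost a call, 21 gained one and 26 changed sign. Sign changes outside the interaction were those of Rbp9 with the length trend removed (-0.074 in wild type, -0.17 in ato), Rbp9 between the inputs, which ranged from -0.465 to 0.095 over the left-out libraries, and bru-3 between the IPs, which ranged from -0.425 to 0.252. The other 22 were interaction values near 0. With 1 run per library these were elav at 0.059 and pum at 0.05. Fmr1 was at -0.004 with upper-quartile factors and -0.03 with the abundance trend removed. Over the left-out libraries the interaction ranged from -0.16 to 0.10 for elav, -0.37 to 0.11 for fne, -0.39 to 0.21 for Rbp9, -0.79 to -0.098 for bru-3, -0.31 to 0.21 for pum, -0.22 to 0.31 for Fmr1 and -0.10 to 0.33 for Adar.

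In the wild-type comparison of IP with input, upper-quartile factors gave 5 genes higher and 0 lower, and DESeq2 size factors and a fit of the compared groups alone gave 0 lower. In ato, 0 were lower with DESeq2 size factors, upper-quartile factors, the DESeq2 Wald test or 1 run per library. Between genotypes, the fit with no filter gave 2 lower in the IPs (808 genes called in all, against 480) and 2 lower in the inputs (1076 against 713). In the inputs the DESeq2 Wald test, only the compared groups and 1 run per library each gave 2 lower, and upper-quartile factors and the abundance trend each gave 0. For the interaction, no filter called 9 genes, the DESeq2 Wald test 1 and the replicate block by preparation 10. The cause of these shifts was not tested.

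Leaving out 1 library gave 2 to 4 of the 7 higher and 0 to 1 lower in wild type (2065 to 3846 genes called in all, against 3655), and 2 to 4 higher and 0 to 1 lower in ato (1689 to 3097, against 2886). It gave 0 to 1 lower between the IPs (234 to 568), 0 to 2 lower between the inputs (321 to 960) and 0 to 3 genes in the interaction.

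The replicate number as an additive replicate block gave 3686, 2875, 559, 789 and 0 genes called in the 5 comparisons and changed no call of the 7 genes. The labels do not say that a number marks a shared homogenate, so the numbers were not taken as pairs. In their deviations from the group means, same-numbered input and IP libraries correlated at 0.085 in wild type and 0.187 in ato. Same-numbered libraries of other groups correlated at -0.081 to 0.079. These values do not decide whether a number marks a shared homogenate. As a block by preparation the replicate number gave 3935 genes in wild type and 3160 in ato, and Adar passed in wild type (edgeR adjusted p = 0.0454). Upper-quartile factors moved the median of all genes by 0.19 in wild type and 0.16 in ato, and DESeq2 size factors by 0.08 and 0.11. The share of higher calls was 48.5% in wild type, 55.3% with DESeq2 size factors and 63.9% with upper-quartile factors. In ato it was 42.2%, 52% and 57.8%, and in the IPs between genotypes 60.0%, 68.8% and 71.1%. Mean levels moved by more than their SD in 10 of 56 cases. That SD rests on 2 libraries and was as low as 0.101 CPM, for Adar in the ato IPs, so a small move can exceed it. Depth limits Rbp9 most, at 182 to 358 counts per library.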
